A study of Homo sapiens with 9 samples.

Results

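RNA sequencing was used to follow 10 genes whose products mark or drive the epithelial to mesenchymal transition in a carboplatin-resistant retinoblastoma line: CDH1, EPCAM and ESRP1 on the epithelial side, CDH2 and VIM on the mesenchymal side, and the transcription factors SNAI1, SNAI2, TWIST1, ZEB1 and ZEB2. They were chosen by name, as the rows of the deposited expression table that carry these gene symbols. All 10 of 10 were among the 27407 features of the table, and all 10 passed the filter on low counts together with 18757 other features, 18767 in all. The human cells, named Weri-RB1/CRP in the labels, carried 1 of 3 short hairpin RNAs in 3 libraries each: shSNHG1#1 or shSNHG1#2, both aimed at the long noncoding RNA gene SNHG1, or the control hairpin shNC. All 3 groups share the same resistant line, and no library is labelled as treated with carboplatin or as the parental line. The labels do not say whether the hairpin cells are pools or single clones, or whether the 3 replicates were grown apart. The p-values below therefore rest on the spread of these libraries alone, and that spread may be technical. SNHG1 itself was not analysed here, so groups follow the labels.

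In an epithelial to mesenchymal transition, cells loosen their junctions, lose apical to basal polarity and gain motility. Transcription factors of the SNAIL, TWIST and ZEB families carry the switch: SNAIL and ZEB proteins bind E-box DNA motifs in the promoters of epithelial genes such as CDH1 and repress them, while mesenchymal genes such as VIM and CDH2 become active. Cells can hold epithelial and mesenchymal genes at the same time, and in cancer the programme has been linked to invasion and to drug resistance.

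Depth was even, at 21502093 to 21606498 estimated reads in each library. Labelled as retinoblastoma, the cells held few photoreceptor transcripts: of 13 cone and rod photoreceptor genes in the table, 11 averaged below 1 FPKM, a level that allows for transcript length and library depth and is the unit read from the values of the table, in each group, the exceptions being led by GNAT2. Epithelial transcripts such as that of the keratin gene KRT8 were abundant, at 775.2, 770.2 and 782.9 FPKM on average in the shSNHG1#1, shSNHG1#2 and shNC groups, while 2 of 9 epithelial markers lay below 1 FPKM. Of the 7 tested, 2 rose and 4 fell with shSNHG1#1, and 2 rose and 5 fell with shSNHG1#2. The shares called were 85.7% and 100%, beside 48.1% and 46.2% of all tested features. MUC1, a mucin gene (log2 fold changes -1.16 and -0.98), CEACAM6 (-0.95 and -0.37) and KRT19 (-0.73 and -0.53) fell most, and CLDN4 and KRT7 rose. One library stood apart: in shSNHG1#1 replicate 1, the fibroblast gene DCN reached 9.80 FPKM against at most 0.81 FPKM in the other 8 libraries, and the endothelial gene VWF reached 0.94 FPKM against at most 0.06 FPKM. The summed level of 8 fibroblast markers ran from 6.30 to 24.64 FPKM over the shSNHG1#1 libraries, from 6.01 to 7.23 FPKM in shSNHG1#2 and from 3.28 to 4.63 FPKM in shNC. The sums for shSNHG1#2 hide a split among the markers. THY1 (3.28 against 1.39 FPKM), COL1A1 (2.71 against 1.25) and PDGFRA (0.563 against 0.347) averaged higher there than in shNC. DCN (0.0133 against 0.437), LUM (0.0133 against 0.127), COL1A2, COL3A1 and PDGFRB averaged lower. The summed level of 6 endothelial and leukocyte markers ran from 4.06 to 8.52 FPKM in shSNHG1#1, from 3.09 to 3.35 FPKM in shSNHG1#2 and from 2.23 to 2.88 FPKM in shNC. Here too the markers were split between shSNHG1#2 and shNC. CD14 (2.38 against 1.86 FPKM) and PECAM1 (0.747 against 0.417) averaged higher in shSNHG1#2, while CDH5, VWF, PTPRC (0.04 against 0.19) and CD3E averaged lower. The part of these fibroblast, endothelial and leukocyte transcripts in the results was not tested. Without shSNHG1#1 replicate 1, 6 of the 10 genes still passed in shSNHG1#1 against shNC, with ZEB2 called and CDH2 not, and CDH1, EPCAM, VIM, SNAI2 and ZEB1 kept their calls. In bulk RNA, fewer cells of a type and less RNA per cell cannot be told apart.

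Both hairpin groups had less VIM, CDH1, CDH2 and SNAI2 RNA than the shNC group, and more EPCAM RNA. On estimated counts the largest changes by ratio were those of SNAI2, which has few counts, at 2.65-fold lower with shSNHG1#1 and 2.47-fold lower with shSNHG1#2, and of EPCAM, at 1.98-fold and 1.85-fold higher. VIM, by far the most abundant of the 10, was 1.57-fold and 1.59-fold lower. CDH1 and CDH2, the E-cadherin and N-cadherin genes, both fell, so the 2 cadherins did not move in opposite directions. ZEB1 passed the test with shSNHG1#1 and not with shSNHG1#2, and SNAI1, TWIST1, ZEB2 and ESRP1 did not pass it in any comparison.

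With edgeR's quasi-likelihood test and Benjamini-Hochberg adjustment over all tested features, 6 of 10 genes passed an adjusted p of 0.05 in shSNHG1#1 against shNC, where 48.1% of all tested features passed. The 6 were 1 higher and 5 lower, beside 24.5% of all features higher and 23.5% lower. In shSNHG1#2 against shNC, 5 of 10 passed, against 46.2% of all features. These were 1 higher and 4 lower, beside 23.3% higher and 22.8% lower. Both shares lie near the background, so the counts are no result about these genes as a set. The median log2 fold change of the 10 was -0.18 with shSNHG1#1 and -0.10 with shSNHG1#2, beside medians of 0.02 and 0.01 over all tested features. The contrasts share their shNC libraries, and 5 of 10 genes (50%) passed in both in the same direction, beside 7500 of 18767 features, 40%. Of the 5, EPCAM was higher and CDH1, CDH2, VIM and SNAI2 were lower.

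**Figure D1:**
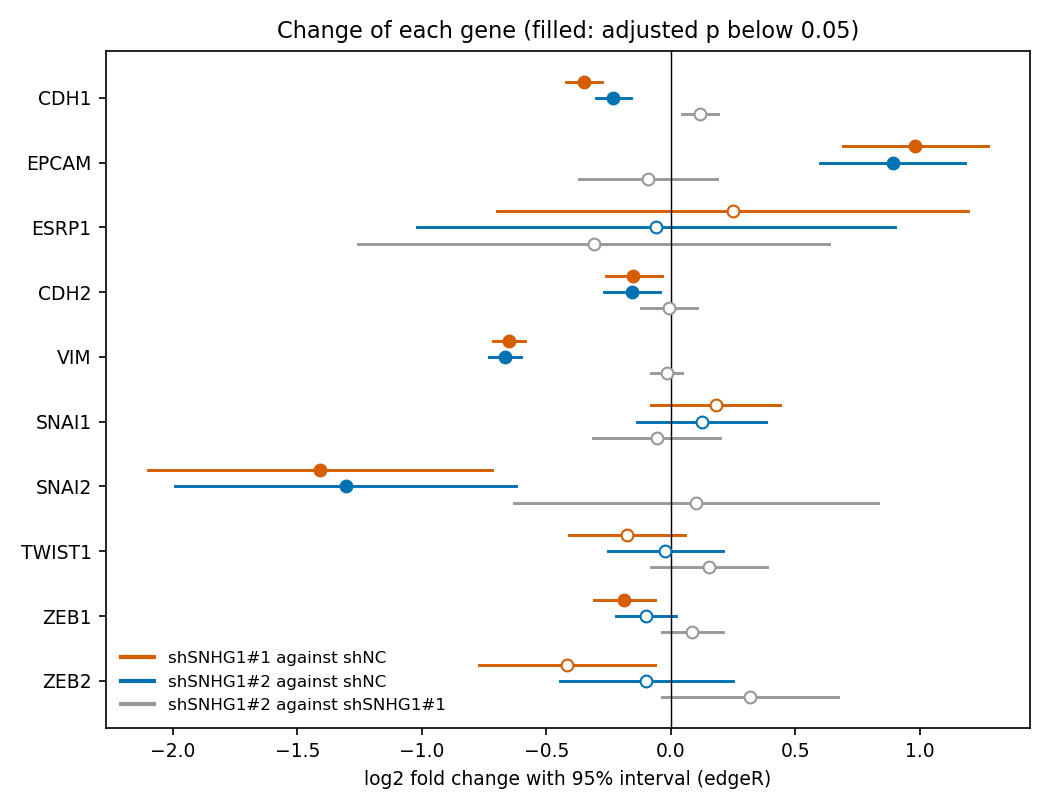
Log2 fold change of each gene (horizontal axis, edgeR) with its 95% interval, for shSNHG1#1 against shNC, shSNHG1#2 against shNC and shSNHG1#2 against shSNHG1#1, with filled points for an adjusted p below 0.05. EPCAM lies to the right of 0 and SNAI2, VIM and CDH1 to the left with both hairpins, while no gene has a filled point between the hairpins.

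By level in FPKM, which allows genes to be compared per length, the 10 genes spanned more than 3 orders of magnitude on a log10 scale in the shNC libraries. VIM stood at 717.5 ± 5.52 FPKM (SD, n = 3), rank 60 of 27407 features. CDH1 followed at 27.35 FPKM, then CDH2 at 11.98, ZEB1 at 11.07 and TWIST1 at 4.52 FPKM. ZEB2 at 3.22 and SNAI1 at 3.16 FPKM overlapped between libraries, EPCAM lay below them at 1.69, SNAI2 at 0.643 and ESRP1 at 0.17 FPKM. The other neighbours in this order did not overlap in shNC. In both hairpin groups EPCAM overlapped SNAI1 and ZEB2, SNAI1 overlapped TWIST1, and SNAI2 overlapped ESRP1. EPCAM also overlapped TWIST1 in shSNHG1#1, but lay below it in every shSNHG1#2 library. VIM, CDH1 and CDH2 kept their places as the 3 highest in each group, though CDH2 overlapped ZEB1 in shSNHG1#2.

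**Figure D2:**
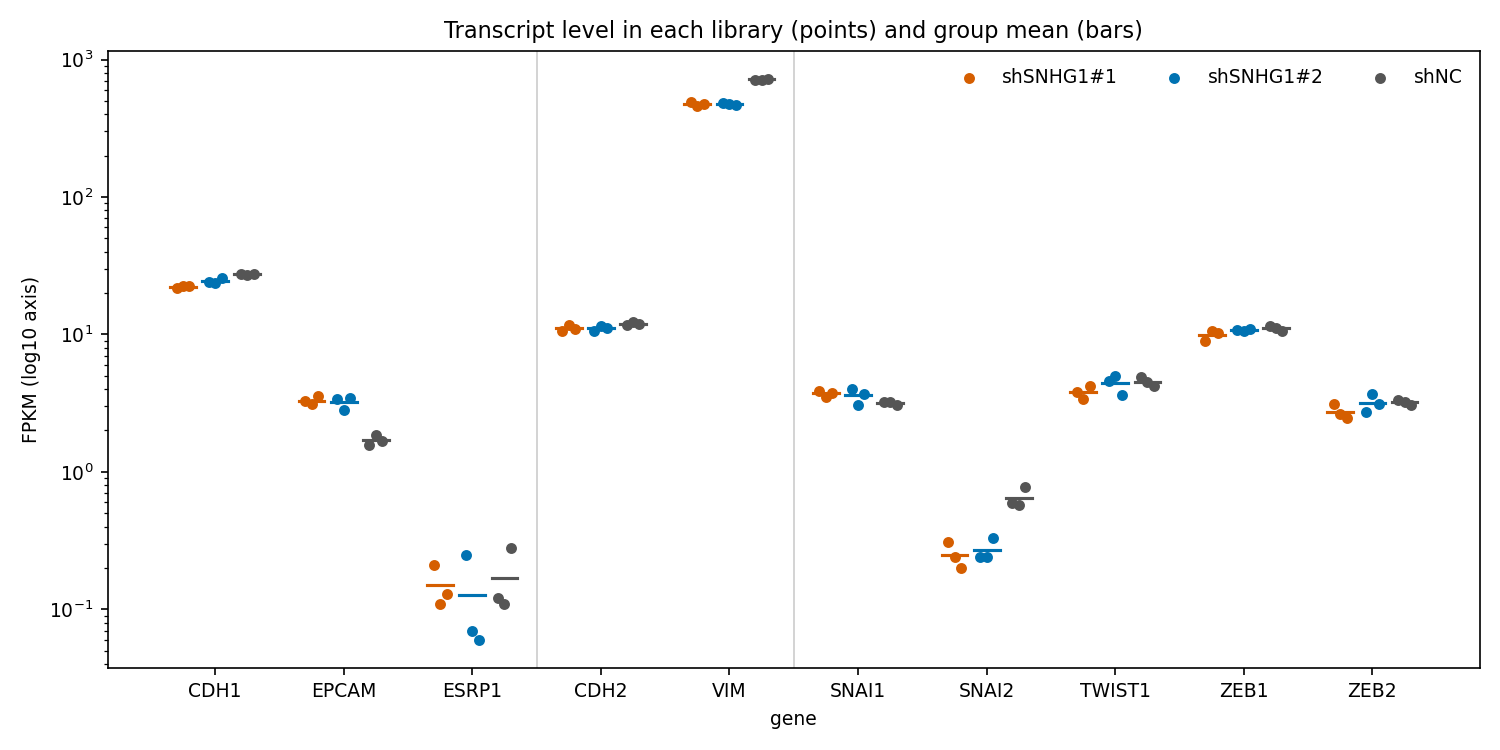
FPKM of each gene (vertical log10 axis) in each library (points) with group means (bars), epithelial genes at the left, mesenchymal genes in the middle and transcription factors at the right, with shSNHG1#1, shSNHG1#2 and shNC side by side. VIM and SNAI2 lie lower, and EPCAM higher, in all 6 hairpin libraries than in the 3 shNC libraries.

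CDH1 encodes E-cadherin, the transmembrane protein that holds epithelial cells together at adherens junctions. It measured 21.74, 22.39 and 22.61 FPKM in the shSNHG1#1 libraries, 24.06, 23.65 and 25.55 FPKM in the shSNHG1#2 libraries and 27.54, 27.16 and 27.36 FPKM in the shNC libraries. The 3 groups did not overlap: shSNHG1#1 was lowest, shSNHG1#2 between and shNC highest. The log2 fold change was -0.35 (SE 0.032, edgeR adjusted p = 6.82e-06) for shSNHG1#1 and -0.23 (SE 0.032, adjusted p = 0.000164) for shSNHG1#2, a fall by 21.4% and by 14.8%. Between the hairpins the difference of 0.12 (95% interval 0.05 to 0.19) had an edgeR adjusted p of 0.0979, and of 0.0223 with DESeq2.

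EPCAM encodes an epithelial adhesion molecule of the cell surface that is often used to tell carcinoma cells from mesenchymal cells. It stood at 3.25, 3.10 and 3.56 FPKM in the shSNHG1#1 libraries, at 3.40, 2.82 and 3.45 FPKM in the shSNHG1#2 libraries and at 1.56, 1.85 and 1.67 FPKM in the shNC libraries. All 6 hairpin libraries lay above all 3 shNC libraries. EPCAM rose by a log2 fold change of 0.98 (SE 0.131, edgeR adjusted p = 0.000102) with shSNHG1#1 and of 0.89 (SE 0.131, adjusted p = 0.00024) with shSNHG1#2. It was the only gene of the 10 that rose past the threshold in either contrast. These are modest levels, far below that of CDH1 in every group.

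ESRP1 encodes a splicing regulator that keeps epithelial isoforms of other genes. Its estimated counts were 27.4, 15.29 and 12.3 in the shSNHG1#1 libraries, 20.25, 15.36 and 9.37 in the shSNHG1#2 libraries and 12.35, 13.3 and 18.63 in the shNC libraries. The groups overlapped, and the gene stood at 0.28 FPKM or less in each library. The 95% interval of its log2 fold change ran from -0.70 to 1.19 for shSNHG1#1 (edgeR adjusted p = 0.672) and from -1.02 to 0.90 for shSNHG1#2 (adjusted p = 0.925). Its direction depended on the unit, since the log2 fold change for shSNHG1#1 was 0.25 on counts and -0.02 on log2(FPKM + 1). ESRP2, the other gene of the family, was at 0.26 FPKM or less in each library.

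VIM encodes vimentin, the intermediate filament protein of mesenchymal cells and a standard mark of the transition. The 250 bases upstream of its RefSeq start site (GRCh38.p14, chr10:17227991-17228240, plus strand) are shown because VIM had the smallest adjusted p of the 10 in both contrasts. They were searched on both strands for the E-box bound by SNAIL and ZEB factors, CACCTG and its reverse complement CAGGTG, and hold neither.
VIM upstream: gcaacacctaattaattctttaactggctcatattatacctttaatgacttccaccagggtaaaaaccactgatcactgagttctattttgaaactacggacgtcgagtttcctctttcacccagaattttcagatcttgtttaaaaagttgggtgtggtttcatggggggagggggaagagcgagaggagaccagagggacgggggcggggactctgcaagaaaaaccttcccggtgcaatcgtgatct
VIM measured 487.39, 458.69 and 470.66 FPKM in the shSNHG1#1 libraries, 480.96, 474.81 and 464.71 FPKM in the shSNHG1#2 libraries and 715.26, 713.54 and 723.84 FPKM in the shNC libraries. The hairpin groups overlapped each other and lay wholly below shNC. VIM fell by 0.65 on the log2 scale (SE 0.028, edgeR adjusted p = 1.83e-08) with shSNHG1#1 and by 0.67 (SE 0.028, adjusted p = 2.10e-08) with shSNHG1#2. Between the hairpins the log2 difference was -0.02, with a 95% interval of -0.08 to 0.05. Even after the fall VIM ranked 104 of 27407 features in shSNHG1#1 and 102 in shSNHG1#2.

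CDH2 encodes N-cadherin, which many cells gain when E-cadherin is lost. It measured 10.56, 11.75 and 10.96 FPKM with shSNHG1#1, 10.53, 11.60 and 11.07 FPKM with shSNHG1#2 and 11.77, 12.26 and 11.90 FPKM with shNC. Every hairpin library lay below every shNC library, though the nearest values were 11.75 and 11.77 FPKM. CDH2 fell by 9.85% (log2 fold change -0.15, SE 0.051, edgeR adjusted p = 0.0317) with shSNHG1#1 and by 10.3% (-0.16, SE 0.051, adjusted p = 0.0264) with shSNHG1#2. These calls are weak: scaled by library totals alone, the log2 fold changes were -0.10 (edgeR adjusted p = 0.123) and -0.09 (adjusted p = 0.173). The shSNHG1#1 call also ended without shSNHG1#1 replicate 1, the library rich in fibroblast transcripts (edgeR adjusted p = 0.0925), without replicate 3 (0.0625) and without shNC replicate 2 (0.0736) or 3 (0.0764). The shSNHG1#2 call ended without shSNHG1#2 replicate 1 (edgeR adjusted p = 0.0859) or 3 (0.0971) and without shNC replicate 2 (0.063) or 3 (0.0654).

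As ratios within a library, CDH1 over CDH2 in FPKM was 2.01 ± 0.0895 with shSNHG1#1, 2.21 ± 0.149 with shSNHG1#2 and 2.29 ± 0.0637 with shNC (SD, n = 3 each). The shSNHG1#1 libraries lay below the shNC libraries, while shSNHG1#2 overlapped both. VIM over CDH1 was 21.24 ± 1.03, 19.42 ± 1.07 and 26.23 ± 0.247, and VIM over EPCAM was 143.4 ± 9.75, 148.2 ± 17.8 and 425.9 ± 37.0, in the same order of groups. Against either epithelial gene, then, VIM was lower in the hairpin groups than in shNC, most of all against EPCAM. These ratios were given no test of their own.

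SNAI2 encodes the zinc finger repressor SLUG. Its estimated counts were 14, 11 and 9 in the shSNHG1#1 libraries, 11, 11 and 15 in the shSNHG1#2 libraries and 27, 26 and 35 in the shNC libraries. All 6 hairpin libraries lay below all 3 shNC libraries, with sums of 34 and 37 counts for shSNHG1#1 and shSNHG1#2 and of 88 for shNC. SNAI2 fell by 1.41 on the log2 scale (SE 0.312, edgeR adjusted p = 0.00331) with shSNHG1#1 and by 1.31 (SE 0.309, adjusted p = 0.00529) with shSNHG1#2. The counts are low and the intervals wide, from -2.10 to -0.72 and from -1.99 to -0.62. The size depends on the scale: on log2(FPKM + 1), where the pseudocount exceeds the gene's own level, the differences were -0.39 and -0.37 (limma adjusted p = 0.000818 and 0.00126), smaller than those of VIM on that scale (-0.60 in both). In FPKM the gene averaged 0.25, 0.27 and 0.643 in the shSNHG1#1, shSNHG1#2 and shNC groups.

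SNAI1 encodes SNAIL, the founding repressor of the family. It stood at 3.88, 3.53 and 3.75 FPKM in the shSNHG1#1 libraries, at 4.04, 3.08 and 3.67 FPKM in the shSNHG1#2 libraries and at 3.20, 3.23 and 3.04 FPKM in the shNC libraries. The shSNHG1#1 libraries lay above all shNC libraries, and shSNHG1#2 overlapped them. Neither contrast passed the test, with log2 fold changes of 0.18 (95% interval -0.08 to 0.44, edgeR adjusted p = 0.233) and 0.12 (-0.14 to 0.38, adjusted p = 0.429). SNAI1 was thus several times as abundant as SNAI2 per length in each group.

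TWIST1 encodes a basic helix-loop-helix factor that acts in mesoderm and neural crest. It stood at 3.81, 3.40 and 4.22 FPKM with shSNHG1#1, at 4.60, 4.95 and 3.64 FPKM with shSNHG1#2 and at 4.87, 4.50 and 4.18 FPKM with shNC. All 3 groups overlapped. The log2 fold change was -0.18 (95% interval -0.41 to 0.06, edgeR adjusted p = 0.198) with shSNHG1#1 and -0.02 (-0.25 to 0.21, adjusted p = 0.886) with shSNHG1#2. The second of these turned positive, at 0.04, with scaling by library totals alone. Its paralog TWIST2, from the list of other transcription factors of the transition, was the more abundant of the pair, at 11.07 ± 0.465, 12.03 ± 1.37 and 10.62 ± 0.482 FPKM (SD, n = 3 each) in the shSNHG1#1, shSNHG1#2 and shNC groups, and it did not pass either test against shNC (edgeR adjusted p = 0.640 and 0.635).

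ZEB1 encodes a zinc finger homeobox repressor of CDH1 and of epithelial microRNAs. RefSeq gives 7 start sites, and 2 of the 7 upstream windows hold the E-box letters CACCTG or CAGGTG. The most upstream window (GRCh38.p14, chr10:31318167-31318416, plus strand) is shown because no other listed start of the gene lies before it. It holds 1 match, CAGGTG, in capitals, which begins 57 bases before the start site, and the other matching window holds 2, which begin 242 and 85 bases before its own start.
ZEB1 upstream: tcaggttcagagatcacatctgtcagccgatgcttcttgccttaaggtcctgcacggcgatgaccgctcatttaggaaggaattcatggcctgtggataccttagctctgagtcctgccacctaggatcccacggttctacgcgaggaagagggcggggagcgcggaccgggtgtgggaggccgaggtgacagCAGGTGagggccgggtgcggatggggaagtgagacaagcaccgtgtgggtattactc
Of 35116 RefSeq windows of 250 upstream bases, 6143 (17.5%) hold either form, so a match is common and is only a description. RefSeq windows were found for CDH2, VIM, ZEB1 and ZEB2, and neither window of CDH2 nor that of ZEB2 holds the letters.
ZEB1 stood at 9, 10.54 and 10.19 FPKM in the shSNHG1#1 libraries, at 10.70, 10.66 and 11.02 FPKM in the shSNHG1#2 libraries and at 11.52, 11.06 and 10.63 FPKM in the shNC libraries. The shSNHG1#1 libraries lay below all others, and shSNHG1#2 overlapped shNC. ZEB1 fell by 0.19 on the log2 scale (SE 0.055, edgeR adjusted p = 0.0172) with shSNHG1#1. With shSNHG1#2 the log2 fold change was -0.10 (95% interval -0.22 to 0.02, edgeR adjusted p = 0.169). The hairpins did not differ past the threshold (log2 difference 0.09, edgeR adjusted p = 0.506), and the shSNHG1#1 call was lost with scaling by library totals alone (-0.14, adjusted p = 0.0548), without shNC replicate 1 (-0.16, adjusted p = 0.0577) and with limma on log2(FPKM + 1) (-0.15, adjusted p = 0.0657) or log2(FPKM + 0.1) (-0.16, adjusted p = 0.0633).

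ZEB2 encodes the other ZEB repressor, and its values are given beside those of ZEB2-AS1, the gene named as its antisense partner. Whether counting used strand is not given in the sources used here. Without strand, reads from any stretch that the pair shares cannot be told apart, and the extent of such a stretch was not examined. ZEB2-AS1 was looked at after its values were seen. ZEB2 had 399.46, 301.00 and 283.43 estimated counts in the shSNHG1#1 libraries, 316.69, 493.02 and 430.98 in the shSNHG1#2 libraries and 442.48, 426.18 and 402.46 in the shNC libraries. ZEB2-AS1 had 68.63, 148.15 and 123.6 estimated counts with shSNHG1#1, 144.09, 2.24 and 0 with shSNHG1#2 and 0, 0 and 10.15 with shNC. The 4 libraries with the fewest ZEB2 counts are the 4 with the most ZEB2-AS1 counts. Whether this reflects shared reads or opposite changes of the RNAs was not tested.

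Taken alone, ZEB2 had a log2 fold change of -0.42 with shSNHG1#1 (95% interval -0.77 to -0.06, edgeR adjusted p = 0.0525) and of -0.10 with shSNHG1#2 (-0.45 to 0.25, adjusted p = 0.652). ZEB2 and ZEB2-AS1 together came to 468.1, 449.1 and 407.0 counts with shSNHG1#1, to 460.8, 495.3 and 431.0 with shSNHG1#2 and to 442.5, 426.2 and 412.6 with shNC. The sums overlapped among the groups, and the log2 fold changes of the sum were 0.00 (edgeR adjusted p = 0.988) and 0.05 (adjusted p = 0.625). Without shSNHG1#1 replicate 1, ZEB2 alone passed the threshold (-0.59, edgeR adjusted p = 0.011). With that library kept, it passed in shSNHG1#1 against shNC with DESeq2 (-0.43, adjusted p = 0.00816). It also passed in edgeR with only the 2 groups fitted (adjusted p = 0.0191), no filter (0.0433) and RLE factors (0.0451). The other alternatives did not call ZEB2. ZEB2-AS1 itself was higher in all 3 shSNHG1#1 libraries than in shNC (edgeR adjusted p = 0.0235, but 0.0548 without shSNHG1#1 replicate 2, 0.0785 or 0.0786 without shNC replicate 1 or 2, and 0.0844 with DESeq2). For shSNHG1#2 the edgeR adjusted p was 0.0879, and it was 0.469 without replicate 1, 0.0439 without replicate 2 and 0.0316 without replicate 3. The antisense genes of ZEB1 and VIM stayed at 40.74 and 27.24 counts or less, and adding them to their partners moved no call.

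**Figure D3:**
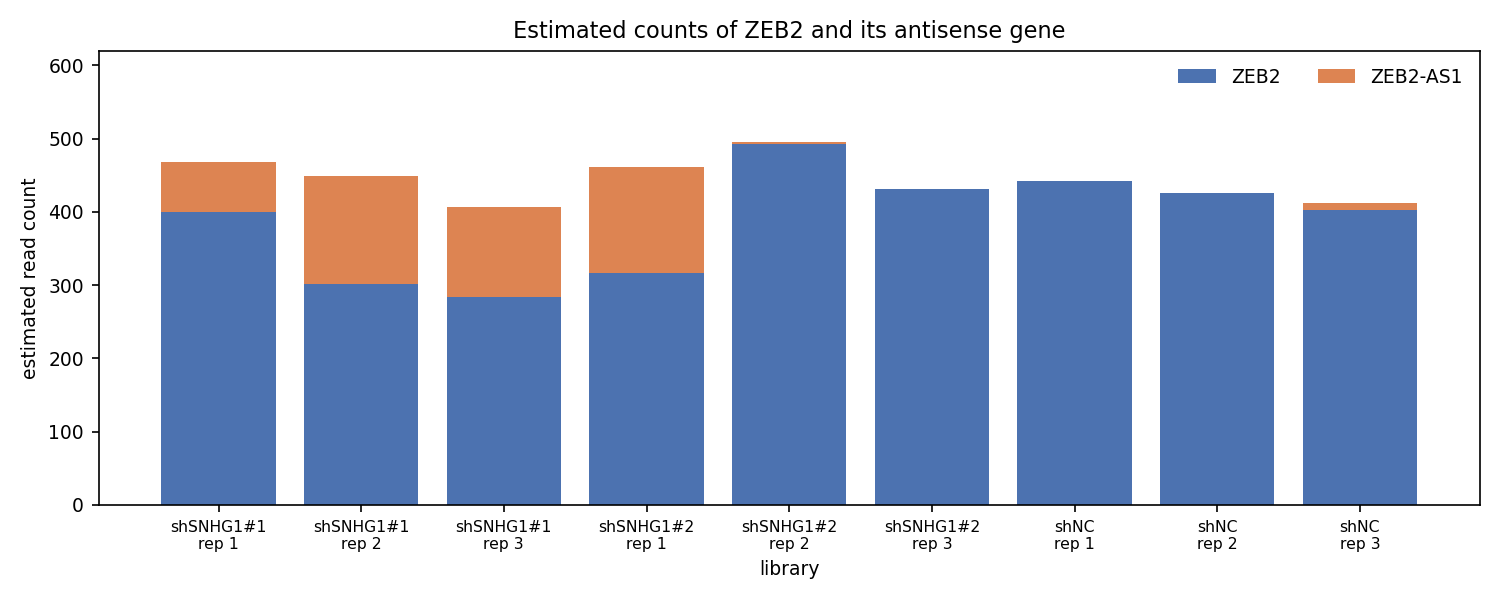
Estimated counts (vertical axis, from 0) of ZEB2 and, stacked on it, of ZEB2-AS1 in each library, with the shSNHG1#1 libraries at the left, shSNHG1#2 in the middle and shNC at the right. The stacked height stays between 407.0 and 495.3 counts, while the ZEB2-AS1 share is large in 4 hairpin libraries and small in the other libraries.

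Between the hairpins, shSNHG1#2 against shSNHG1#1, 0 of 10 genes passed edgeR's threshold, where 3.12% of all tested features did, 2% higher and 1.12% lower. At an unadjusted edgeR p below 0.05 there was 1 gene, CDH1, and CDH1 was also the 1 gene that DESeq2 called. In FPKM, CDH1 and ZEB1 were higher in all shSNHG1#2 libraries than in all shSNHG1#1 libraries, 2 of 10 genes, beside 19.2% of all tested features whose groups did not overlap. Against shNC, 7 and 5 of 10 genes did not overlap, beside 53.3% and 52.6% of all features. The widest 95% interval between the hairpins was that of ESRP1, from -1.26 to 0.64, and the narrowest was that of VIM.

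Other genes of the programme were read from 8 lists, as counts out of those tested beside the backgrounds of 48.1% and 46.2% given above. Of 10 desmosome genes, 0 rose and 7 fell with shSNHG1#1, and 0 rose and 5 fell with shSNHG1#2, with medians of -0.25 and -0.22. DSP, which encodes the linker desmoplakin, fell to 26.5 ± 1.27 and 28.55 ± 0.897 FPKM with shSNHG1#1 and shSNHG1#2, against 51.79 ± 0.609 FPKM with shNC (SD, n = 3 each; log2 fold changes -1.01 and -0.93, edgeR adjusted p = 4.57e-09 and 1.18e-08). The plakophilin gene PKP3 (-0.60 and -0.46), the plakin gene PPL (-0.28 and -0.31) and PERP (-0.22 and -0.20) fell with both hairpins as well.

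Of 14 adherens junction partners, 2 rose and 5 fell with shSNHG1#1, and 5 rose and 4 fell with shSNHG1#2, with medians of -0.12 and -0.05. Among the catenin genes, CTNNA1 (log2 fold changes -0.32 and -0.31) and CTNND1 (-0.22 and -0.24), whose products bind the cadherin tail and its links to actin, fell with both hairpins. So did VCL, the vinculin gene (-0.31 and -0.41). CTNNB1 and JUP, also catenin genes, did not fall past the threshold with shSNHG1#1 (-0.001 and 0.10, edgeR adjusted p = 0.981 and 0.0608). With shSNHG1#2 they averaged 52.3 and 115.6 FPKM, against 49.19 and 100.5 FPKM in shNC. These levels are not scaled as in the edgeR test, whose results for shSNHG1#2 are not given here. CTNNB1 averaged 51.61 FPKM with shSNHG1#1, where its log2 fold change was -0.001, so such levels alone show no rise. NECTIN1, an adhesion receptor gene, rose to 3.52 ± 0.25 and 3.77 ± 0.191 FPKM, against 1.75 ± 0.0379 FPKM in shNC (edgeR adjusted p = 3.52e-06 and 2.06e-06). Of 18 tight junction and polarity genes, 5 rose and 6 fell with shSNHG1#1 and 5 rose and 4 fell with shSNHG1#2, with medians of -0.03 and 0.04. CLDN4 (0.99 and 0.93) and CGN (1.05 and 0.84), a claudin and the cingulin gene, rose like EPCAM, while CLDN1 (-0.38 and -0.39) and TJP1 (-0.44 and -0.33), a claudin and the ZO-1 scaffold gene, fell.

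Of 14 tested epithelial state regulators, out of 20 listed, 9 rose and 1 fell with shSNHG1#1, and 8 rose and 1 fell with shSNHG1#2, with medians of 0.30 and 0.22. GRHL1, a grainyhead transcription factor of epithelia, rose to 1.48 ± 0.18 and 1.51 ± 0.16 FPKM, against 0.283 ± 0.0874 FPKM in shNC (SD, n = 3 each; log2 fold changes 2.21 and 2.26, edgeR adjusted p = 7.39e-06 and 7.35e-06). EHF, an epithelial ETS factor gene, rose by 1.23 and 1.62, and SPINT2, a gene for an inhibitor of membrane serine proteases, by 0.24 and 0.19. ELF3, another epithelial ETS factor gene and the only gene of the list that fell, dropped to 80.07 ± 3.74 and 80.69 ± 1.82 FPKM, against 158.0 ± 2.12 FPKM in shNC. GRHL2, OVOL1, OVOL2 and RAB25 had 0.28 FPKM or less in every library.

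Of 11 other transcription factors of the transition, 1 rose and 5 fell with shSNHG1#1 and 1 rose and 3 fell with shSNHG1#2, with medians of -0.13 and -0.01. ETS1, an ETS factor gene of mesenchymal and endothelial cells, fell by 0.78 and 0.82 on the log2 scale, TCF4, a helix-loop-helix factor gene, by 0.70 and 0.63, and SOX9 by 0.50 and 0.21. TCF3, which encodes a helix-loop-helix partner of TWIST proteins, was higher by 0.14 and 0.13 with edgeR adjusted p-values of 0.0315 and 0.0469, close to the threshold. Its calls are weak: they were lost under 8 of the alternative settings with shSNHG1#1 and under 11 with shSNHG1#2. In FPKM, shSNHG1#1 overlapped shNC for this gene. Of 18 mesenchymal effectors, 7 rose and 3 fell with shSNHG1#1, and 6 rose and 4 fell with shSNHG1#2, with medians of 0.30 and 0.02. FN1, the fibronectin gene, fell to 318.7 ± 7.45 and 406.9 ± 3.29 FPKM, against 716.3 ± 5.85 FPKM in shNC (SD, n = 3 each). THY1 (1.11 and 1.15) and COL1A1 (1.18 and 1.06), a surface glycoprotein and a collagen gene, rose, both at low levels. Both are also among the 8 fibroblast markers, and without shSNHG1#1 replicate 1 the shSNHG1#1 counts were 5 higher and 3 lower with a median of 0.06.

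Of 18 genes for repressor partners and turnover of the SNAIL and ZEB proteins, 5 rose and 6 fell with shSNHG1#1, and 5 rose and 5 fell with shSNHG1#2, with medians of -0.02 in both. CTBP2, a corepressor gene of ZEB factors, fell by 0.42 and 0.48, and FBXO11, a ubiquitin ligase gene that acts on SNAIL, by 0.30 and 0.24. EZH2, the Polycomb methyltransferase gene, rose by 0.47 and 0.38, and MDM2, a ubiquitin ligase gene, by 0.31 and 0.37. Among 7 other type III and IV intermediate filament genes, relatives of VIM, 4 rose and 1 fell with shSNHG1#1 and 2 rose and 1 fell with shSNHG1#2, with medians of 0.38 and 0.28. SYNM, the synemin gene, rose by 0.36 and 0.28, while INA, the internexin gene, fell by 0.39 and 0.34. The shares called were 71.4% and 42.9%, beside 48.1% and 46.2% of all tested features. With 2 against 1 for shSNHG1#2, near the background, the counts do not set VIM apart from its relatives there. Scaled by library totals alone, some list medians changed sign: to 0.02 for tight junction genes with shSNHG1#1, to 0.02 for adherens junction partners and 0.06 for other transcription factors with shSNHG1#2, and to 0.02 and 0.04 for repressor partners with shSNHG1#1 and shSNHG1#2.

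Between the hairpins, EHF (log2 difference 0.39), SOX9 (0.29) and FN1 (0.33) were higher in shSNHG1#2 than in shSNHG1#1, with edgeR adjusted p-values of 0.000342, 0.00341 and 3.58e-05. AXL, a receptor tyrosine kinase gene of the mesenchymal list named after its values were seen, behaved likewise (0.27, edgeR adjusted p = 0.000546). For SOX9 and FN1 this means a smaller fall against shNC with shSNHG1#2, the same order of groups as for CDH1.

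**Figure D4:**
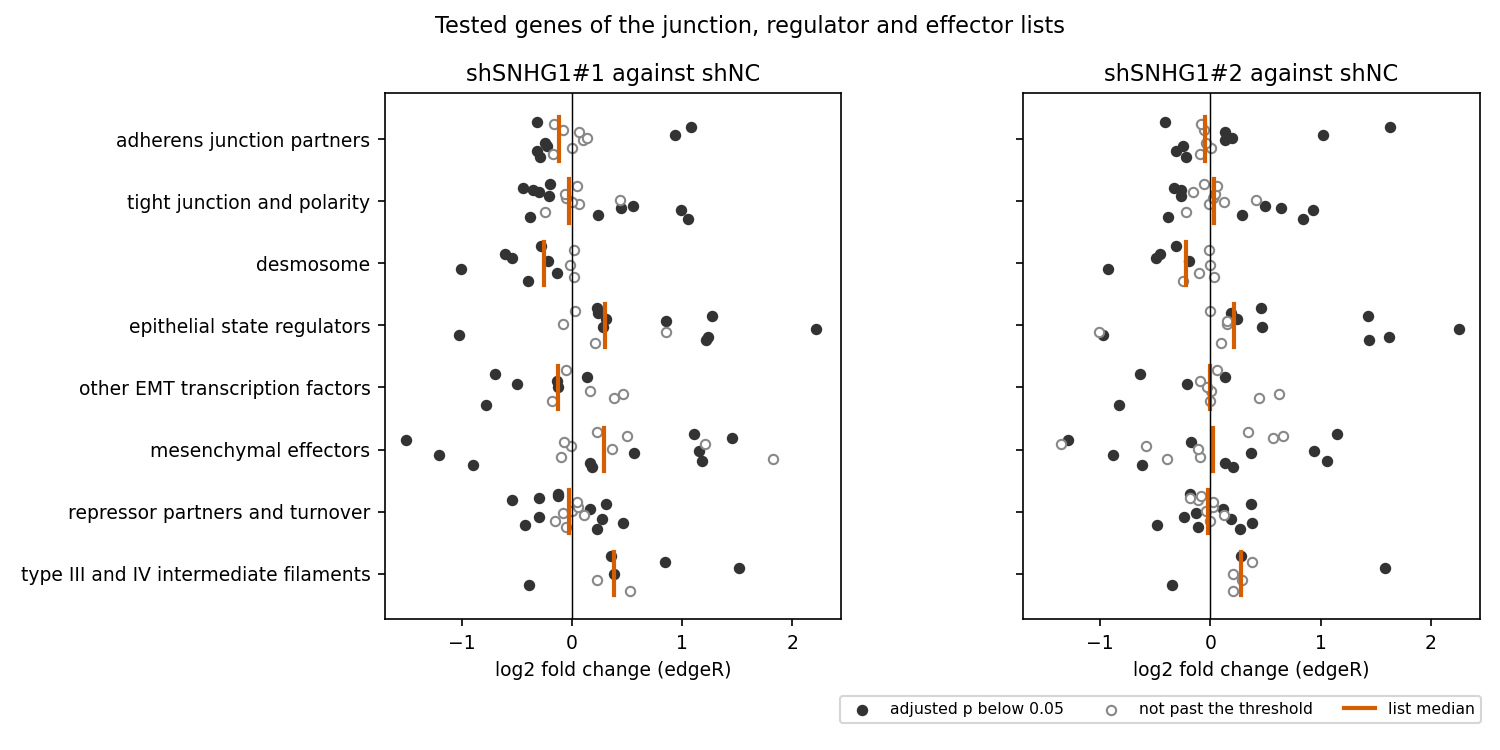
Log2 fold change (horizontal axes, edgeR) of each tested gene in the 8 lists (rows), for shSNHG1#1 against shNC at the left and shSNHG1#2 against shNC at the right, with filled points for an adjusted p below 0.05 and a bar at the list median. Desmosome genes that passed lie left of 0 in both panels, all but 1 of the epithelial state regulators that passed lie right of 0, and the other lists hold filled points on both sides.

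Genes outside the set whose log2 CPM followed each gene most closely over the 9 libraries were taken as a description, since the libraries share their groups. For VIM these were LIF, a cytokine gene, and TPI1, a glycolysis enzyme gene, both with Pearson r = 0.999 over 9 libraries and 12787 genes searched. For CDH1 they were SH3GLB1 and SERINC3 (r = 0.993 and 0.992), and for EPCAM RTN4RL1 and TCHP (r = 0.990 and 0.987). CDH2 was followed by TBX20 and AP1G1 (r = 0.960 and 0.942), and ZEB1 by MPDZ, a tight junction scaffold gene, and NBPF19 (r = 0.967 and 0.966). For the genes that did not pass the main edgeR test the closest profiles were looser: COX7B for SNAI1 (r = 0.929), PGBD4 for ZEB2 (r = 0.936) and STARD9 for TWIST1 (r = 0.909). SNAI2 and ESRP1 lay below the level needed for this search.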

How the data were processed

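Libraries of total RNA were made by a BGI protocol after Trizol extraction, per the labels' protocols. The authors deposited 1 table with an estimated count and an expression value for each feature and library, per the file headers. Columns numbered 1, 2 and NC were matched to shSNHG1#1, shSNHG1#2 and shNC by number and replicate in the titles. The deposited expression values carry no unit in the header and were read as FPKM, since counts divided by them gave plausible transcript lengths (1864 to 1867 bases for VIM). Per the submitters' processing notes, the tools were RSEM 1.2.12, DESeq2 1.4.5, HISAT2 2.0.4 and Bowtie2 2.2.5. The sources used here give no genome build, annotation or strand of counting. Estimated counts, which can be fractions because reads are shared among transcripts, were rounded and tested with edgeR 4.0.16 (TMM factors, filterByExpr, quasi-likelihood F test, group as the only term over 9 libraries, Benjamini-Hochberg adjustment over 18767 features, threshold 0.05). The median biological coefficient of variation was 7.28%. Replicates of a group differed beyond sampling noise (chi-square per degree of freedom 3.12 to 6.29). FPKM served for levels. Alternatives used library totals, RLE factors, no filter, fits of 2 groups, DESeq2 1.42.0 and limma 3.58.1 on log2 FPKM with pseudocounts of 1 and 0.1. The test was also run on simulated counts, whose outcome is not given here and is not relied on. The 10 genes and all lists were chosen with earlier results of these data known. From each list the 2 highest and 2 lowest genes past the threshold in both contrasts, at a mean log2 CPM no lower than 2, were named, except 1 that is not reported here. Similar profiles were ranked on log2 CPM with a prior count of 2. Upstream sequences are RefSeq's on GRCh38.p14 and were found for 4 of the 10 genes. SNHG1 was not analysed here.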

Additional observations from a re-analysis of the deposited data

How the results depend on the processing

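Against shNC, the calls of CDH1, EPCAM, VIM and SNAI2 kept their direction and their side of the threshold under all 14 alternatives. CDH2 lost its call under 7 of 14 for each hairpin and ZEB1 with shSNHG1#1 under 4, while ZEB2 with shSNHG1#1 gained one under 5. The cause was not tested. Scaling by library totals alone called 4 of the 10 genes in each contrast against shNC and moved the median of all features to 0.07 and 0.08. It turned shSNHG1#2 against shNC to 5344 higher and 3426 lower calls, beside 4382 and 4287, and shSNHG1#2 against shSNHG1#1 to 431 and 145, beside 375 and 211. It also turned small values to 0.001 for ESRP1 and 0.043 for TWIST1 (shSNHG1#2 against shNC), and to 0.011 for CDH2 and 0.003 for VIM (shSNHG1#2 against shSNHG1#1). On log2 FPKM with pseudocounts of 1 and 0.1, limma gave -0.023 and -0.077 for ESRP1 with shSNHG1#1, and 0.004 with both for VIM between the hairpins. With antisense counts added, an alternative chosen after seeing the data, ZEB2 came to 0.002 and 0.051.

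Between the hairpins, 586 features were called, 386 with only those 2 groups fitted, 970 with DESeq2 (and 1 of the 10 genes in place of 0), and 297 to 534 when a library was left out. Leaving out 1 library at a time gave log2 fold changes that crossed 0 for values past no threshold. Against shNC these ran from -0.171 to 0.464 for ESRP1 with shSNHG1#1, and with shSNHG1#2 from -0.358 to 0.194 for ESRP1, from -0.103 to 0.048 for TWIST1, from -0.244 to 0.053 for ZEB2 and from -1.687 to 8.592 for ZEB2-AS1. Between the hairpins they ran from -0.050 to 0.034 for CDH2, from -0.134 to 0.015 for EPCAM, from -0.592 to 0.1 for ESRP1, from -0.032 to 0.015 for VIM, from -0.157 to 0.051 for SNAI1 and from -0.044 to 0.279 for SNAI2.

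The labels number replicates alike across groups, but same-numbered libraries did not deviate together (9 correlations from -0.145 to 0.043, against -0.112 to 0.160 for other numbers). These values show no pairing by number, but cannot tell whether same-numbered libraries were grown or prepared together. Of 9 libraries, 0 correlated best with a library of its own number. With a replicate block, 8752, 8421 and 433 features were called in the 3 contrasts, and 6, 5 and 0 of the 10 genes. Low counts limit SNAI2 and ESRP1.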
